A study of Mus musculus with 10 samples.

Results

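The 33 genes described here are expressed by macrophages. They were taken by Ensembl ID, from a list of symbols, from the 55414 genes counted in each library, and all 33 were found, each with 1 matching ID. RNA was sequenced from trigeminal ganglia, the sensory ganglia of the face, of C57Bl6 mouse embryos at E13.5. The knockout group (Prdm12-/-; Sox10 Venus+) and the wild-type group (Prdm12+/+; Sox10 Venus+) had 5 libraries each, so both carried the Sox10 Venus+ label, which is not explained further. Prdm12 encodes a zinc finger protein needed for pain-sensing neurons. Ganglia were microdissected. The protocol names no sorting step, but the label does not say whether Sox10 Venus+ marks an allele of the embryo or a selection of cells, and the macrophage levels below are those of the RNA as labelled. In bulk samples, fewer cells of a type and less RNA per cell cannot be told apart.

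Macrophages of the embryo derive largely from the yolk sac and need the receptor CSF1R, bound by CSF1 or IL-34, together with the transcription factor PU.1, encoded by Spi1. They clear dying cells, which are abundant while sensory ganglia form. Microglia, the macrophages of the brain parenchyma, are known for P2ry12 and high Cx3cr1, whereas border-associated macrophages of meninges, vessels and nerves are known for Mrc1, Cd163, Lyve1 and Pf4. The members were therefore read as 22 genes shared by macrophages, 3 microglia-like genes and 8 border-associated genes. None of these genes is exclusive to 1 type, and Stab1 and Dab2 are also expressed by endothelium or other tissues.

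Total counts ranged from 3258008 (knockout 49) and 13603690 (knockout 29) to 33556002 (knockout 16), with 27308327 to 32045821 in the other 7 libraries. Values are CPM, counts relative to the TMM-scaled library total, and 3 counts corresponded to 0.869 CPM in knockout 49, 0.236 in knockout 29 and 0.0889 to 0.107 in the remaining libraries. Prdm12 was at 8.74 to 42.7 CPM in knockout ganglia and 74.3 to 264 CPM in wild-type ganglia (log2 fold change -3.32, SE 0.49, edgeR adjusted p = 0.0156). Neuronal Tubb3 and glial Sox10 were present in every library. The 8 trigeminal neuron markers summed to 12131 and 12737 CPM in wild-type 32 and 35 and 13685 CPM in knockout 29. In the remaining libraries they summed to 5075 to 8680 CPM. The part of neuronal RNA in the macrophage values was not tested. Wild-type 32 and 35 stood apart: both lay below the other 8 libraries in 15.4% of 18005 tested genes and above them in 14.7%. Results are therefore also given without these libraries. Per-library values below run in the order 16, 29, 42, 49 and 50 for the knockout and 22, 24, 32, 35 and 45 for the wild type.

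Macrophage transcripts were present in all 10 libraries, with wide differences between libraries of 1 genotype. The 22 shared genes summed to 257, 252, 356, 262 and 378 CPM in the knockout, against 201, 384, 76.4, 79.7 and 182 CPM in wild-type ganglia. Wild-type 24 had the highest sum of all libraries, wild-type 32 and 35 the lowest, and the groups overlapped. The means were 301 ± 60.9 CPM in knockout ganglia, against 185 ± 125 CPM in wild-type ganglia (SD, n = 5 each), a ratio of 1.63. Without wild-type 32 and 35 the wild-type mean was 256 ± 112 CPM (SD, n = 3) and the ratio 1.18. All 33 members together were at 615, 589, 1027, 719 and 1214 CPM in the knockout, against 703, 948, 167, 196 and 519 CPM in wild-type ganglia. Being sums over members chosen with earlier results known, these carry no test.

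**Figure D1:**
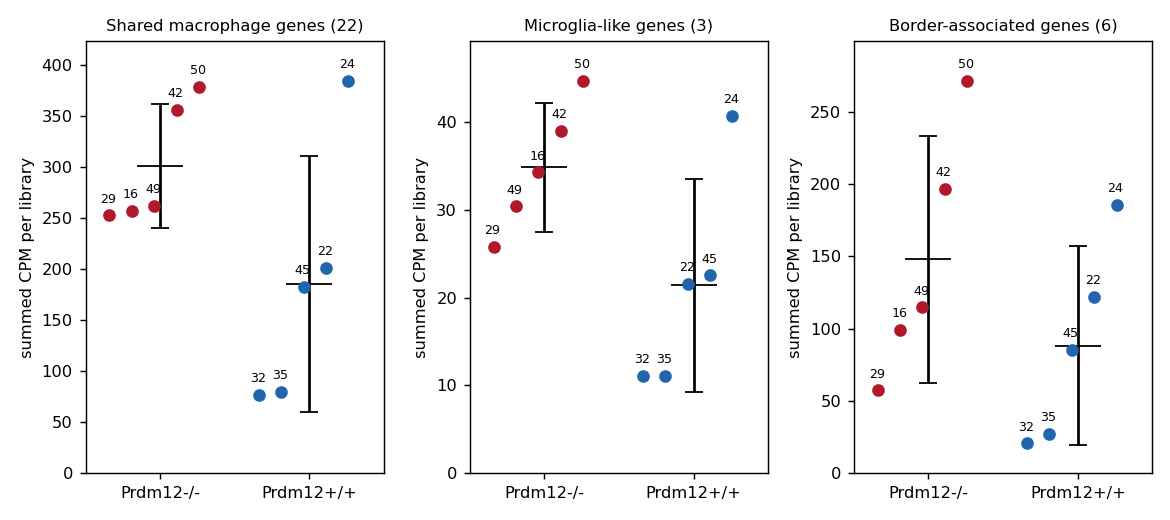
Summed CPM per library (vertical axis) of the 22 shared macrophage genes, the 3 microglia-like genes and the 6 border-associated genes other than Stab1 and Dab2, for Prdm12-/- (left) and Prdm12+/+ (right), with the replicate number at each point and mean and SD bars (n = 5 each). Wild-type 24 is the highest library for shared genes and lies within the knockout range in the other panels, and wild-type 32 and 35 are lowest in all 3.

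Most members had the same libraries at the low end. In 31 of 33 genes, all but Cd53 and P2ry12, wild-type 32 and 35 were both below the other 8 libraries, against 15.4% of all tested genes. Knockout 50 was the highest library in 15 members and wild-type 24 in 13. Within the knockout, libraries 42 and 50 were both above the other 3 in 24 members. No member had every knockout library above every wild-type library, against 1.29% of all tested genes, or below every one, against 2.92%.

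**Figure D2:**
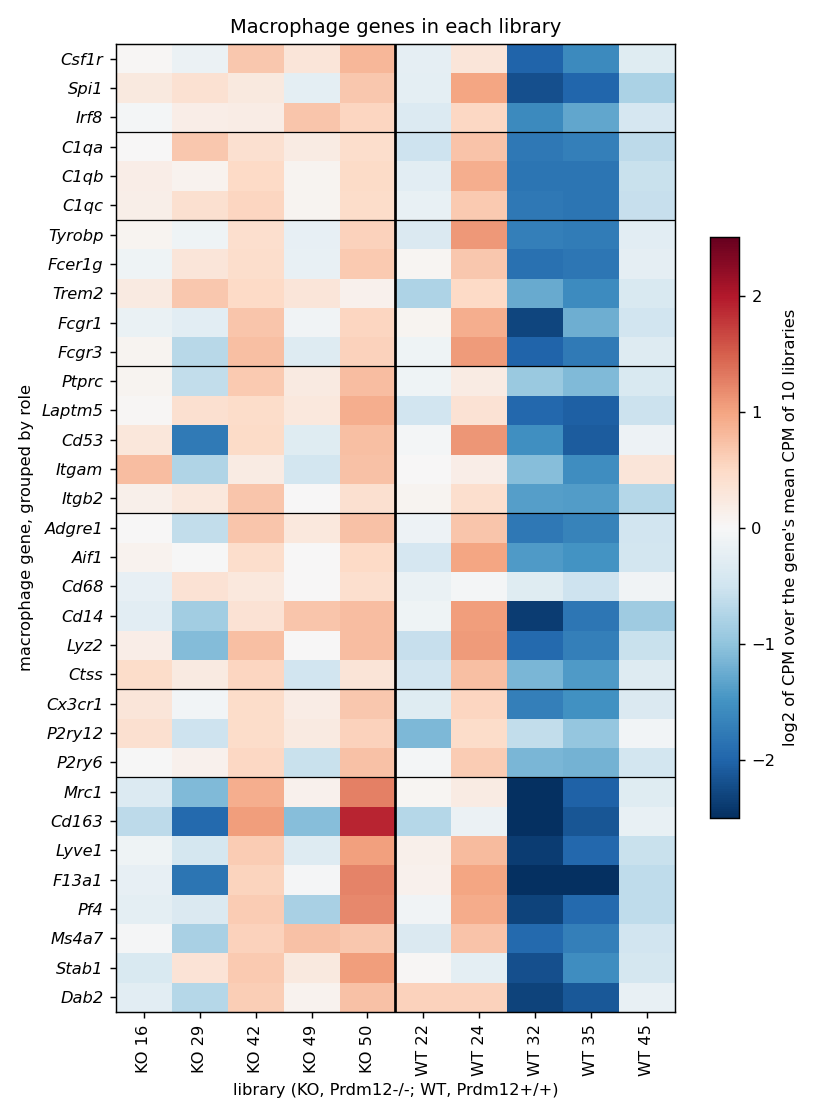
Log2 of each gene's CPM over its mean CPM of 10 libraries (colour, limited to 2.5 either way), with the 33 macrophage genes in rows grouped by role and the libraries in columns, knockout left of wild type. Wild-type 32 and 35 are low in nearly every row, and knockout 29 is low in most border-associated genes but not in C1qa, Trem2 or Stab1.

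The promoters of the members were also read for the short core that PU.1 binds. RefSeq windows (GRCm38.p6, from 250 bases before to 50 after the start) were found for 24 of 33 members, in 30 windows. GAGGAA, searched on both strands, was in 21 of these 30 windows and in 28.3% of 32851 windows of all genes. Its extension GAGGAAGT, which contains it, was in 5 member windows and in 3.20% of all windows. The ETS-IRF composite element, at which PU.1 binds with IRF4 or IRF8, was in 1 member window, that of Cd68, and in 2.72% of all windows. No GAGGAA was in the windows of Cx3cr1, P2ry12, Cd163, Fcer1g, Irf8 and Lyz2. Motif matches describe the letters only, and their part in the levels was not tested. The 250 bases before the start are shown for 2 of the chains of C1q, found in all macrophages, and for the border-associated genes Mrc1 and Pf4, with GAGGAA or its reverse complement TTCCTC in capitals.

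C1qb, chr4:136886201-136886450, minus strand: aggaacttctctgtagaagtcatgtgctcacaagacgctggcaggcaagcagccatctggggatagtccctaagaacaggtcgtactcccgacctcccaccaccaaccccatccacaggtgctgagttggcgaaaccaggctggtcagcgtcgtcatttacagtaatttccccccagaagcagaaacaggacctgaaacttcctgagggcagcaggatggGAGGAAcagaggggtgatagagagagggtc

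C1qc, chr4:136892915-136893164, minus strand: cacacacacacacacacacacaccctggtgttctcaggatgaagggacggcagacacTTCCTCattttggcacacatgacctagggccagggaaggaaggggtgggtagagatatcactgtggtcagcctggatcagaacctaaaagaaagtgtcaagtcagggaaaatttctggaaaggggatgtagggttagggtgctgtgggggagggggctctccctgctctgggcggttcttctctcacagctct

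Mrc1, chr2:14229164-14229413, plus strand: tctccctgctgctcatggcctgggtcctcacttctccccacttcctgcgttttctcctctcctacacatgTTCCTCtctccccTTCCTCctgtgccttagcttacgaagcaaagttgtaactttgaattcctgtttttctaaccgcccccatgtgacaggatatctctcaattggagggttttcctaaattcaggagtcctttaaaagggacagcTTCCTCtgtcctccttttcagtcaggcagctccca

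Pf4, chr5:90772185-90772434, plus strand: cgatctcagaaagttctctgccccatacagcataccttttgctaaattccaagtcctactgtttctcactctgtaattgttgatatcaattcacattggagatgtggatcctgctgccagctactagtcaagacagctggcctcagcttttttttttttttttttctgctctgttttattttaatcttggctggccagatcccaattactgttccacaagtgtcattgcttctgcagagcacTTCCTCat

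The core began 30 bases before the start in C1qb, 193 in C1qc, 8 in Pf4, and 35, 167 and 180 in Mrc1. In C1qc and Pf4 it was part of GAGGAAGT.

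Csf1r (ENSMUSG00000024621), the receptor on which macrophage survival depends, was at 50.4, 44.6, 78.8, 61.1 and 88.3 CPM in the knockout, against 42.6, 61.6, 12.4, 16.4 and 40.4 CPM in wild-type ganglia. All knockout libraries exceeded wild-type 22, 32, 35 and 45, but wild-type 24 lay within their range. It averaged 64.6 ± 18.5 CPM in knockout ganglia, against 34.7 ± 20.3 CPM in wild-type ganglia (SD, n = 5 each; log2 fold change 0.90, SE 0.39, edgeR adjusted p = 0.364), and thus did not pass the threshold of 0.05. Without wild-type 32 and 35 its log2 fold change was 0.47 (SE 0.26, edgeR adjusted p = 0.798). Spi1, encoding PU.1, was at 5.25, 5.82, 5.3, 3.76 and 7.13 CPM in the knockout, against 3.77, 8.89, 0.97, 1.13 and 2.57 CPM in wild-type ganglia, with its highest value in wild-type 24 (log2 fold change 0.67, SE 0.53, edgeR adjusted p = 0.592). Irf8, a transcription factor of the macrophage and dendritic cell lineages, averaged 4.96 ± 1.04 CPM in knockout ganglia, against 2.93 ± 1.72 CPM in wild-type ganglia (log2 fold change 0.74, SE 0.38, edgeR adjusted p = 0.42).

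The 3 chains of C1q, the recognition molecule of the classical complement pathway, varied less among knockout libraries than among wild-type ones. C1qa was at 16.6, 26.4, 21.8, 19.1 and 22.5 CPM in the knockout, against 11.6, 27.3, 4.82, 5.09 and 10.5 CPM in wild-type ganglia. C1qb was at 26.1, 24.6, 32.8, 24.3 and 32 CPM in the knockout, against 19.3, 43.3, 6.55, 6.52 and 15.7 CPM in wild-type ganglia. C1qc was at 25.3, 30.3, 33, 24 and 31.3 CPM in the knockout, against 20.1, 36.1, 6.62, 6.49 and 15.4 CPM in wild-type ganglia. For each chain the knockout values lay between those of wild-type 22 and 24, with wild-type 32 and 35 far below. Their sum was 78 ± 9.73 CPM in knockout ganglia, against 47.1 ± 36.4 CPM in wild-type ganglia (SD, n = 5 each). None passed, with edgeR adjusted p-values of 0.413, 0.562 and 0.449 for C1qa, C1qb and C1qc.

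Among the signalling adaptors with an ITAM and the receptors that pair with them, Trem2 differed most. Trem2, a lipid-sensing receptor of phagocytes, was at 6.55, 8.97, 7.9, 6.95 and 6.08 CPM in the knockout, against 3.3, 7.9, 2.36, 1.88 and 4.3 CPM in wild-type ganglia (log2 fold change 0.88, SE 0.36, edgeR adjusted p = 0.337). Only wild-type 24 reached the knockout range. Tyrobp, the adaptor of TREM2, was at 9.81, 8.73, 12.6, 8.11 and 13.9 CPM in the knockout, against 7.31, 19.7, 2.88, 2.8 and 7.82 CPM in wild-type ganglia, and wild-type 24 was above every knockout library. Fcer1g, the adaptor of Fc receptors, averaged 12.5 ± 3.08 CPM in knockout ganglia, against 8.48 ± 5.8 CPM in wild-type ganglia. Of the IgG receptors, Fcgr1 averaged 3.91 ± 1.23 CPM in knockout ganglia, against 2.9 ± 2.21 CPM in wild-type ganglia, and Fcgr3 9.8 ± 3.91 CPM in knockout ganglia, against 7.59 ± 6.46 CPM in wild-type ganglia, and the log2 fold changes of Tyrobp, Fcgr1 and Fcgr3 were 0.40, 0.44 and 0.38 with all libraries but -0.081, -0.020 and -0.12 without wild-type 32 and 35. Fcgr3 and Lyz2 have closely related neighbouring genes, so their counts depend on how shared reads were assigned.

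Genes of the leukocyte membrane gave unequal differences. Laptm5, a lysosomal membrane protein of blood cells, was at 19.5, 24.9, 26.2, 22.9 and 35.8 CPM in the knockout, against 13.7, 24.5, 4.88, 4.64 and 13.1 CPM in wild-type ganglia (log2 fold change 1.09, SE 0.42, edgeR adjusted p = 0.308). Here wild-type 24 lay inside the knockout range and the other wild-type libraries below it. Cd53, a leukocyte tetraspanin, was at 5.22, 1.26, 5.97, 3.47 and 7.2 CPM in the knockout, against 4.17, 9.27, 1.49, 1.02 and 3.94 CPM in wild-type ganglia (log2 fold change 0.24, SE 0.59, edgeR adjusted p = 0.885), with knockout 29 close to wild-type 32 and 35. Ptprc, the pan-leukocyte phosphatase CD45, averaged 5.51 ± 1.91 CPM in knockout ganglia, against 3.45 ± 1.28 CPM in wild-type ganglia (SD, n = 5 each). The integrin chains were lowest, Itgam at 0.933 ± 0.412 CPM in knockout ganglia, against 0.667 ± 0.32 CPM in wild-type ganglia, and Itgb2 at 1.79 ± 0.336 CPM in knockout ganglia, against 1.1 ± 0.608 CPM in wild-type ganglia, and Itgam had 2 counts in knockout 49.

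Of the surface and lysosomal genes, Cd68 varied least among wild-type libraries relative to its mean. Cd68, a lysosomal glycoprotein, was at 9.93, 14.8, 13.8, 11.6 and 15.3 CPM in the knockout, against 10.3, 11.2, 9.28, 8.06 and 10.8 CPM in wild-type ganglia (log2 fold change 0.40, SE 0.18, edgeR adjusted p = 0.364). Its wild-type values spanned a narrow range in which wild-type 32 and 35 were lowest but close to the others. Lyz2, encoding lysozyme M, was at 18.4, 7.71, 27.8, 16.5 and 28 CPM in the knockout, against 11, 34.5, 4.26, 5.05 and 11.1 CPM in wild-type ganglia, and Adgre1, the F4/80 antigen, averaged 16.1 ± 5.6 CPM in knockout ganglia, against 10.04 ± 7.05 CPM in wild-type ganglia. Aif1, the calcium-binding protein Iba1, averaged 3.68 ± 0.624 CPM in knockout ganglia, against 2.65 ± 2.11 CPM in wild-type ganglia, the cathepsin gene Ctss 11.6 ± 2.82 CPM in knockout ganglia, against 7.86 ± 5.12 CPM in wild-type ganglia, and the lipopolysaccharide co-receptor gene Cd14 0.858 ± 0.359 CPM in knockout ganglia, against 0.574 ± 0.542 CPM in wild-type ganglia. Wild-type 24 was the highest of all libraries in Lyz2, Aif1, Ctss and Cd14.

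Microglia-like genes were at 10.2 to 14.5 per 100 CPM of the 22 shared macrophage genes, highest in wild-type 32 and 35. Cx3cr1, the fractalkine receptor, was at 23.4, 17.9, 26.1, 21.4 and 30.3 CPM in the knockout, against 15.4, 27.4, 5.79, 6.62 and 14.6 CPM in wild-type ganglia (log2 fold change 0.77, SE 0.38, edgeR adjusted p = 0.404). P2ry12, an ADP receptor of microglia, was at 7.11, 3.78, 7.47, 6.37 and 8.11 CPM in the knockout, against 2.5, 7.42, 3.53, 2.77 and 5.14 CPM in wild-type ganglia (log2 fold change 0.63, SE 0.33, edgeR adjusted p = 0.445). It was lowest in wild-type 22 and so departed from the order of the other members. P2ry6, a UDP receptor linked to phagocytosis, averaged 4.46 ± 1.47 CPM in knockout ganglia, against 3.16 ± 1.75 CPM in wild-type ganglia. Per 100 CPM of shared macrophage genes, the 3 genes had 13.4, 10.2, 11, 11.6 and 11.8 in the knockout, against 10.7, 10.6, 14.5, 13.9 and 12.4 in wild-type ganglia, on average 11.6 ± 1.16 in knockout ganglia, against 12.4 ± 1.77 in wild-type ganglia (SD, n = 5 each). The groups overlapped and the means differed by less than either SD.

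Border-associated genes, like the other members, overlapped between the genotypes. Mrc1, the mannose receptor CD206, was at 39.1, 23.1, 93.3, 53.3 and 119 CPM in the knockout, against 51.2, 57.5, 8.59, 12.3 and 40.2 CPM in wild-type ganglia (log2 fold change 0.95, SE 0.56, edgeR adjusted p = 0.478). Knockout 42 and 50 were above every wild-type library, while knockout 29 and 16 were below wild-type 22, 24 and 45. F13a1, the A subunit of clotting factor XIII, was at 30.1, 9.91, 51.7, 34.2 and 83 CPM in the knockout, against 37.8, 69.3, 5.06, 5.8 and 22.5 CPM in wild-type ganglia (log2 fold change 0.58, SE 0.70, edgeR adjusted p = 0.737), and its log2 fold change was -0.0011 without wild-type 32 and 35. Cd163, the haemoglobin scavenger receptor, was low, at 0.385, 0.157, 1.24, 0.29 and 2.27 CPM in the knockout, against 0.367, 0.543, 0.104, 0.137 and 0.528 CPM in wild-type ganglia (log2 fold change 1.49, SE 0.68, edgeR adjusted p = 0.381). It rested on 2 counts in knockout 29, 1 in knockout 49 and 3 in wild-type 32, and was highest in knockout 50.

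Pf4, a chemokine gene of these macrophages and of platelets, was at 10.2, 9.44, 18.8, 6.95 and 28 CPM in the knockout, against 11.5, 23.2, 2.46, 3.17 and 7.82 CPM in wild-type ganglia. The hyaluronan receptor gene Lyve1, shared with lymphatic endothelium, averaged 20.02 ± 9.27 CPM in knockout ganglia, against 13.1 ± 10.5 CPM in wild-type ganglia, and Ms4a7 5.06 ± 1.9 CPM in knockout ganglia, against 2.97 ± 2.22 CPM in wild-type ganglia. Knockout 50 was again highest in Pf4 and Lyve1. Stab1, a scavenger receptor also made by sinusoidal endothelium, was at 97, 159.7, 198, 149 and 263 CPM in the knockout, against 129.8, 107, 27.8, 43 and 93.2 CPM in wild-type ganglia. It had the smallest p of all members (log2 fold change 1.12, SE 0.40, edgeR adjusted p = 0.278). Dab2, an endocytic adaptor, was at 128, 93.9, 237, 163 and 257 CPM in the knockout, against 229, 231, 31, 35.5 and 136 CPM in wild-type ganglia (log2 fold change 0.41, SE 0.54, edgeR adjusted p = 0.763), with wild-type 22, 24 and 45 inside the knockout range.

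The balance of border-associated to microglia-like transcripts differed more between single libraries than between the genotype means. Summed CPM of Mrc1, Cd163, Lyve1, F13a1, Pf4 and Ms4a7 over that of Cx3cr1, P2ry12 and P2ry6 was 2.89, 2.21, 5.04, 3.77 and 6.07 in the knockout, against 5.66, 4.56, 1.85, 2.43 and 3.78 in wild-type ganglia. The lowest and the highest ratios within each genotype differed more than the means, 4.0 ± 1.57 in knockout ganglia, against 3.65 ± 1.55 in wild-type ganglia (SD, n = 5 each). Wild-type 32 and knockout 29 had the lowest ratios, knockout 50 and wild-type 22 the highest. The 6 genes were selected from the 8 after values were seen, since Stab1 and Dab2 are less specific.

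Mesenchyme markers were low in the same libraries as this balance. The 10 mesenchyme markers (Col3a1 and Col1a1 the most abundant, both fibrillar collagen genes) summed to 4216, 3049, 11315, 6342 and 6649 CPM in the knockout, against 6536, 6247, 942, 1231 and 4822 CPM in wild-type ganglia. The 4 libraries with the lowest mesenchyme sums, wild-type 32 and 35 and knockout 29 and 16, were also the 4 with the lowest border-associated to microglia-like ratios. The highest mesenchyme sum was in knockout 42. The part of mesenchyme in the ratio was not tested.

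**Figure D3:**
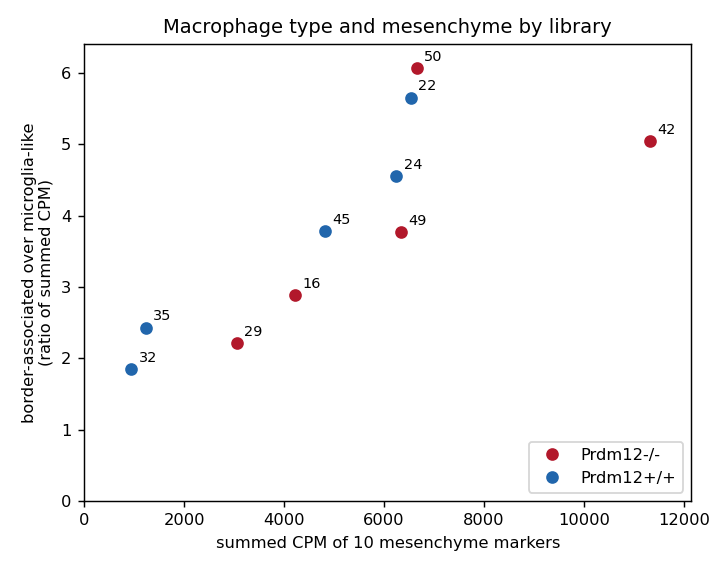
Ratio of summed CPM of 6 border-associated to 3 microglia-like genes (vertical axis) against the summed CPM of 10 mesenchyme markers (horizontal axis), 1 point per library with its replicate number, for Prdm12-/- and Prdm12+/+. The 4 libraries lowest in mesenchyme (wild-type 32 and 35, knockout 29 and 16) also have the 4 lowest ratios.

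Endothelial transcripts also differed between libraries. The 12 endothelial markers (Cdh5 and Kdr the most abundant, an adhesion molecule and a VEGF receptor) summed to 506, 883, 1123, 685 and 1246 CPM in the knockout, against 635, 356, 271, 347 and 611 CPM in wild-type ganglia. The 22 shared macrophage genes amounted, per 100 CPM of endothelial markers, to 50.7, 28.6, 31.7, 38.2 and 30.4 in the knockout, against 31.7, 108, 28.2, 23 and 29.8 in wild-type ganglia. Wild-type 24 had 108, knockout 16 50.7, and the other 8 libraries 23.0 to 38.2. The means were 35.9 ± 9.06 in knockout ganglia, against 44.1 ± 35.9 in wild-type ganglia (SD, n = 5 each). None of the 12 was called higher by edgeR, against 0.0944% of all tested genes, and 10 were higher at an unadjusted p under 0.05, against 6.4%. The part of endothelium in the macrophage values was not tested.

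**Figure D4:**
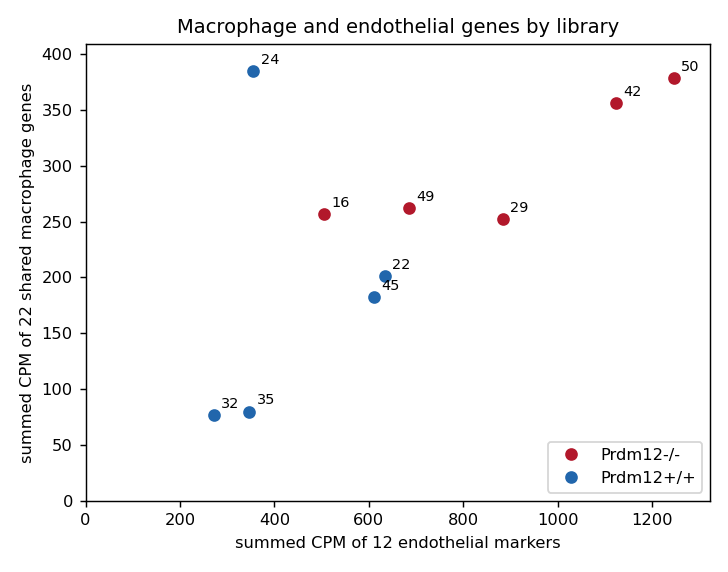
Summed CPM of the 22 shared macrophage genes (vertical axis) against that of 12 endothelial markers (horizontal axis), 1 point per library with its replicate number, for Prdm12-/- and Prdm12+/+. Wild-type 24 has the highest macrophage sum with the third lowest endothelial sum, and wild-type 32 and 35 are lowest in both.

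Markers of other blood cells differed between libraries in their own ways. The 6 mast cell markers (led by Cpa3 and Hdc, a granule protease and the histamine-forming enzyme) summed to 0.664 to 1.96 CPM in knockout ganglia, against 0.273 to 22.7 CPM in wild-type ganglia, with the maximum in wild-type 24. Monocyte and neutrophil markers (8 genes, led by S100a9 and Ltf) summed to 1.34 to 38.3 CPM in the knockout, the maximum being knockout 42, and to 0.205 to 9.58 CPM in the wild type. Platelet markers (7 genes, led by Itga2b and Ppbp) summed to 8.98 to 47.1 CPM in the knockout and to 7.82 to 15.3 CPM in the wild type. The maximum was in knockout 29, where Pf4 was at 9.44 CPM. Knockout 50 was next, at 38 CPM, and had the highest Pf4 of all libraries, 28 CPM. Dendritic cell markers (7 genes, led by Ciita and Cd74) summed to 3.78 to 8.14 CPM in knockout ganglia, against 5.14 to 5.84 CPM in wild-type ganglia. T, B and NK cell markers (8 genes, led by Cd79a and Il7r) reached at most 1.16 CPM in knockout ganglia, against 0.934 CPM in wild-type ganglia. Ncr1, a defining NK receptor gene, had 0 counts in every wild-type library and averaged 0.0204 ± 0.0457 CPM per kb of exon in knockout ganglia. Of these 8 genes, 5 had 3 counts or fewer in every knockout library, and 4 in every wild-type library. Erythroid markers (9 genes, led by Hbb-y and Hba-x) reached 868 to 3326 CPM in the knockout, most in knockout 29, and 544 to 1779 CPM in the wild type. The part of these cells in the macrophage values was not tested.

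Scaled by exonic length, the most abundant members in knockout ganglia were C1qb, Dab2, C1qa and Pf4. C1qb averaged 25.7 ± 3.79 CPM per kb in knockout ganglia, against 16.8 ± 13.9 in wild-type ganglia, and C1qa 20.5 ± 3.56 in knockout ganglia, against 11.4 ± 8.81 in wild-type ganglia (SD, n = 5 each). Csf1r was at 11.2 ± 3.21 CPM per kb in knockout ganglia, against 6.01 ± 3.51 in wild-type ganglia. Mrc1 stood at 10.3 ± 6.19 CPM per kb in knockout ganglia, against 5.33 ± 3.51 in wild-type ganglia, above P2ry12 at 2.58 ± 0.66 CPM per kb in knockout ganglia, against 1.68 ± 0.80 in wild-type ganglia. Cd163 was the lowest member, at 0.159 ± 0.163 CPM per kb in knockout ganglia, against 0.0615 ± 0.0383 in wild-type ganglia.

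No member passed the test between genotypes, although all 33 fitted fold changes were above 0. With edgeR's quasi-likelihood test, 0 of 33 members were called higher and 0 lower at an adjusted p of 0.05, against 0.0944% and 0.372% of 18005 tested genes. Adjusted p-values ran from 0.278 (Stab1) to 0.885 (Cd53). At an unadjusted p of 0.05, 5 members were higher (Csf1r, Trem2, Laptm5, Cd68 and Stab1), against 6.4% of all tested genes, and none lower, against 6.73%. The median log2 fold change of the members was 0.63, that of the microglia-like genes 0.63 and of the border-associated genes 0.69, while all tested genes had a median of -0.03. Among all tested genes, 46.3% had a fold change above 0.

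The size of this difference depended on a few wild-type libraries. Without wild-type 32 and 35 the members' median was 0.21 (microglia-like genes 0.36, border-associated genes 0.20), with 27 members above 0 and 6 below, 2 at an unadjusted p under 0.05 (Laptm5 and Stab1, both higher, against 3.91% of all tested genes), and none called, against 0% higher and 0.102% lower. Of all genes 53.3% were then above 0. Leaving out wild-type 24 alone gave a median of 1.20, with 28 members at an unadjusted p under 0.05, all higher, against 10.9% of all tested genes. The smallest adjusted p was then 0.0554, so none was called, against 0.191% of all tested genes higher and 0.425% lower. Leaving out wild-type 35 alone gave 0.40. DESeq2 called no member (smallest adjusted p 0.0934, 11 at an unadjusted p under 0.05), against 1.75% of its tested genes called higher, 1.23% called lower and 4.62% higher at an unadjusted p under 0.05. By contrast, limma-voom with sample quality weights called 31 of 33 members higher, all but Itgam and Dab2, where it called 7.02% of all tested genes higher and 6% lower, and gave a median of 1.59. In that fit wild-type 24 had a weight of 0.191 and knockout 29 of 0.211, against 0.771 to 2.54 for the other 8 libraries. The wild-type library richest in macrophage transcripts thus counted least in that fit. Wild-type 32 and 35, the poorest in them, had weights of 1.60 and 2.08, and knockout 50 had the largest weight, 2.54. The part of the weights in the calls was not tested.

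**Figure D5:**
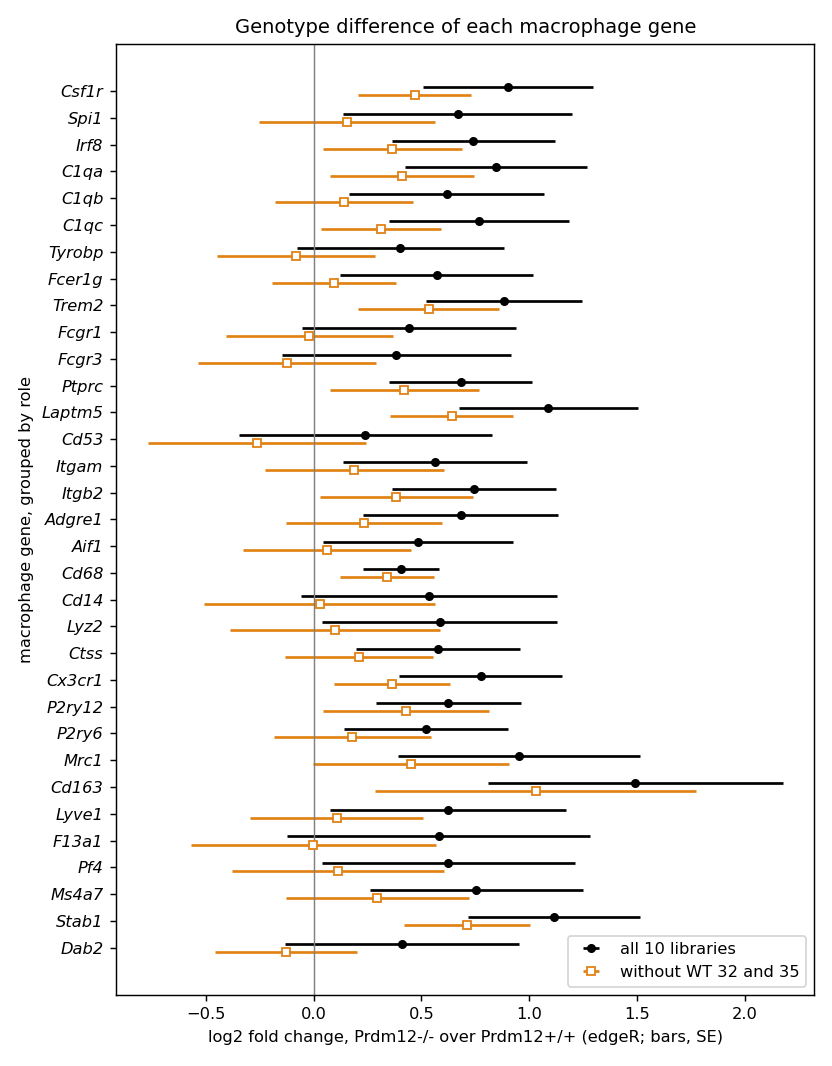
Log2 fold change, knockout over wild type, of each macrophage gene (points, with SE bars, from edgeR) with all 10 libraries and without wild-type 32 and 35. With all libraries every point is above 0 and no gene is called; without wild-type 32 and 35, 6 points are below 0.

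Knockout 29 had a macrophage profile of its own within its genotype. It was the lowest knockout library in 18 members, among them Csf1r, Ptprc, Cd53, Adgre1, Lyz2, Mrc1, Cd163, Lyve1 and F13a1, yet the highest in C1qa and Trem2. The ratio of F13a1 to C1qa was 0.375 there, against 1.79 to 3.69 in the other knockout libraries. Lyz2 over C1qa was 0.292 in knockout 29, against 0.864 to 1.27 in the others. This library also had the highest platelet, erythroid, glial and neuronal sums of all. Glial markers were at 5045 CPM, whereas the other knockout libraries had 1352 to 1913 CPM. Trigeminal neuron markers were at 13685 CPM, against 5075 to 7884 CPM in the other knockout libraries. The part of these cells in the profile was not tested.

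Further genes of macrophage biology, from 8 lists, were not called by edgeR either. Of 86 tested genes, edgeR called 0 higher and 0 lower, against 0.0944% and 0.372% of all tested genes. At an unadjusted p under 0.05, 21 were higher and 0 lower, against 6.4% and 6.73% of all tested genes. DESeq2 called 4 higher (Lrp1, Il34, Plcg2 and Apoe), against 1.75% of its tested genes, and limma-voom with quality weights 42, against 7.02%. The list for the CSF1 receptor pathway also held receptor genes for GM-CSF and G-CSF (Csf2ra, Csf2rb and Csf3r). Of its 13 tested genes, 8 were higher at an unadjusted p under 0.05, against 6.4% of all tested genes, with none called. Csf1, a ligand of CSF1R, was at 29.7 ± 12.3 CPM in knockout ganglia, against 19.9 ± 2.54 CPM in wild-type ganglia (SD, n = 5 each; log2 fold change 0.59, SE 0.25, edgeR adjusted p = 0.359). Csf2ra, the GM-CSF receptor chain, was at 86.4 ± 56 CPM in knockout ganglia, against 63.7 ± 20.7 CPM in wild-type ganglia. Among wild-type libraries it was highest in 32 and 35 (83.9 and 80.5 CPM) and lowest in 24 (31.9 CPM). The shared macrophage genes had the reverse order in these libraries. Knockout 29 had 186.5 CPM of Csf2ra, and the other knockout libraries 58.5 to 63.3 CPM. Il34, the other ligand, was named after its values were seen. It was at 1.39, 1.1, 2.88, 1.45 and 6.85 CPM in the knockout, against 0.634, 1.47, 0.346, 0.41 and 0.951 CPM in wild-type ganglia, with the highest level in knockout 50 (log2 fold change 1.88, SE 0.58, edgeR adjusted p = 0.213).

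Genes for the uptake of apoptotic cells had 0 of 12 called. Lrp1, an endocytic receptor of many cell types, had no overlap between the genotypes (1.29% of all tested genes lay fully above), at 593 ± 76.1 CPM in knockout ganglia, against 357 ± 99.3 CPM in wild-type ganglia (log2 fold change 0.73, SE 0.20, edgeR adjusted p = 0.154). Abca1, a cholesterol exporter, averaged 175 ± 76.7 CPM in knockout ganglia, against 87.7 ± 29.9 CPM in wild-type ganglia. Of 12 lysosomal genes none was called, with Psap at 628 ± 119 CPM in knockout ganglia, against 538 ± 36 CPM in wild-type ganglia, and Ctsb at 431 ± 62.2 CPM in knockout ganglia, against 333 ± 68.8 CPM in wild-type ganglia. The 13 listed genes summed to 2085, 2450, 2637, 2204 and 2448 CPM in the knockout, against 2033, 2526, 1773, 1834 and 1906 CPM in wild-type ganglia.

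The remaining lists gave no edgeR call either. Among 12 further border macrophage genes none was called, with Apoe at 311 ± 97.3 CPM in knockout ganglia, against 157 ± 66.8 CPM in wild-type ganglia (log2 fold change 0.98, SE 0.30, edgeR adjusted p = 0.215) and Igf1 at 169 ± 88.2 CPM in knockout ganglia, against 196 ± 17.7 CPM in wild-type ganglia. Of 9 complement genes none was called, with the C1 inhibitor gene Serping1 at 48.6 ± 26.4 CPM in knockout ganglia, against 30.6 ± 10.6 CPM in wild-type ganglia. Chemokines and their receptors had 0 of 9 called. Cxcl12, made mostly by mesenchyme and endothelium, was at 397 ± 163 CPM in knockout ganglia, against 212 ± 124 CPM in wild-type ganglia, and its receptor gene Cxcr4 at 20.4 ± 9.29 CPM in knockout ganglia, against 25.2 ± 5.95 CPM in wild-type ganglia. Innate sensors and inflammatory genes had 0 of 8 called, with Tgfbr1 at 165 ± 32.6 CPM in knockout ganglia, against 158 ± 6.9 CPM in wild-type ganglia, and Tgfb1 at 11.2 ± 2.86 CPM in knockout ganglia, against 5.76 ± 2.75 CPM in wild-type ganglia, and the cytokine genes Il1b, Il6, Tnf and Il10 were below the filter on low counts.

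Of 11 further microglia genes none was called, with Cst3 at 143 ± 22 CPM in knockout ganglia, against 146 ± 37.5 CPM in wild-type ganglia, and Olfml3 at 61.3 ± 30.9 CPM in knockout ganglia, against 52.3 ± 30.3 CPM in wild-type ganglia. Sall1 and Tmem119, named after their values were seen, are known from microglia but also from other embryonic tissues. Sall1 was at 16.3, 6.22, 3.84, 14.8 and 16.8 CPM in the knockout, against 1.6, 5.88, 1.32, 0.512 and 9.44 CPM in wild-type ganglia. Tmem119 was at 28, 16.5, 47.9, 31.3 and 18.3 CPM in the knockout, against 42.8, 54.7, 3.95, 5.6 and 23.4 CPM in wild-type ganglia. Neither followed the order of Cx3cr1: Sall1 was high in knockout 16, 49 and 50, and Tmem119 was highest in wild-type 24 and knockout 42. Fcrls and Gpr34 of the same list, also named after their values were seen, lay closer to Cx3cr1. Fcrls was at 22.4, 14.6, 23.3, 18 and 27.4 CPM in the knockout, against 14.8, 31.7, 5.54, 6.04 and 13.1 CPM in wild-type ganglia. Both were lowest in wild-type 32 and 35 and highest in wild-type 24.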

How the data were processed

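RNA sequencing libraries of mouse trigeminal ganglia (5 Prdm12-/-, 5 Prdm12+/+) were compared. The deposited files hold raw counts per Ensembl gene, 1 file per library. Tools of the authors, per the submitters' processing notes, were STAR 2.7.10a, bcl2fastq 2.20.0.422 and featureCounts 1.5.0-p1. GRCm39 and mm10 are both named as builds, with no role. Strand setting, annotation release and the handling of shared reads were not given in the sources used. Groups and replicate numbers come from the titles. The labels do not say that libraries came from separate embryos, and p-values measure only the spread among them, which may be technical. No library repeated another (chi-square per gene at least 9.88 within groups, over genes with 200 or more counts). That smallest value was of wild-type 32 and 35, and the other wild-type pairs had 27.9 to 247, so these libraries were the most alike.

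Counts were filtered with filterByExpr (minimum count 10, leaving 18005 genes), scaled by TMM and tested with edgeR's quasi-likelihood test, with p-values adjusted over all 18005 genes (Benjamini-Hochberg, threshold 0.05). The functions were tested on simulated data in which no library stood apart. That run does not measure power or false calls in the libraries described here. Software was limma 3.58.1, edgeR 4.0.16 and DESeq2 1.42.0 in R 4.3.3. Alternatives were DESeq2 size factors, no filter, a minimum count of 50, DESeq2, limma-voom with sample quality weights, and leaving out libraries. Symbols matched 52081 IDs. Exonic lengths came from GENCODE M21 (GRCm38) and promoters from RefSeq (GRCm38.p6), which may differ from the build counted. The members and lists were chosen with earlier results of these data known. From each further list the text names called genes or, with none, the 2 most abundant. From each marker list it names the 2 most abundant. Of the genes so chosen, 1 is not reported here.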

Additional observations from a re-analysis of the deposited data

Results flagged for a closer look

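The values given for members, other named genes, marker and list sums and ratios form 188 groups of 5 libraries, of which chance flags about 1 in 20. In 12 of them 1 library stood apart by Dixon's ratio at the 95% level. Knockout 29 did so in 6. Its ratio of C1qa to Csf1r was 0.593, against 0.255 to 0.330 in the other knockout libraries, and its ratio of Cd68 to Csf1r was 0.332, against 0.174 to 0.197. Its Csf2ra level was 186.5 CPM, against 58.5 to 63.3 CPM, and its Prdm12 level was 42.7 CPM, against 8.74 to 17.02 CPM. Its glial markers summed to 5045 CPM, against 1352 to 1913 CPM, while its innate sensors and inflammatory genes summed to 137 CPM, against 205 to 226 CPM. Wild-type 24 stood apart in 3. Its Aif1 level was 6.27 CPM, against 1.13 to 2.37 CPM in the other wild-type libraries, and its Lyz2 level was 34.5 CPM, against 4.26 to 11.1 CPM. Its shared macrophage genes amounted to 108 per 100 CPM of endothelial markers, against 23.0 to 31.7. In knockout 42, monocyte and neutrophil markers summed to 38.3 CPM, against 1.34 to 5.78 CPM in the other knockout libraries, and Serping1 was at 93.4 CPM, against 27.8 to 46.3 CPM. T, B and NK cell markers summed to 0.622 CPM in knockout 16, against 1.02 to 1.16 CPM in the other knockout libraries.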

How the results depend on the processing

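No alternative gave a lower call among the members, and the count of higher calls was 0 in every alternative except limma-voom with sample quality weights, which called 31 members and 42 of the 86 further genes, with a members' median of 1.59 and a border-associated median of 1.96. DESeq2 called 4 of the further genes. Leaving out 1 library at a time gave members' medians between 0.40 and 1.20. Directions turned without wild-type 32 and 35 for Tyrobp (-0.081), Fcgr1 (-0.020), Fcgr3 (-0.12), Cd53 (-0.26), F13a1 (-0.0011) and Dab2 (-0.13). Leaving out 1 library at a time, Cd53 ranged from -0.0073 to 0.88. The cause was not tested. Raw library totals in place of TMM moved no library's summed CPM by more than its group's SD. The TMM factors ran only from 0.936 to 1.06, so this comparison could hardly have come out otherwise. No paired analysis was possible because the groups share no replicate number. Depth limits Cd163 and Itgam in knockout 49 (1 and 2 counts).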
